A study of Bos taurus with 96 samples.

Results

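Transcripts of 5 apolipoprotein genes were followed in liver and in skeletal muscle of dairy cows around calving. The genes were chosen by name and Ensembl identifier: APOA1 (ENSBTAG00000002258), APOA2 (ENSBTAG00000009212), APOA5 (ENSBTAG00000019764), APOH (ENSBTAG00000001915) and APOD (ENSBTAG00000023600). They were 5 of the 24616 genes counted. Each had been named in the study's own lists of genotype differences made from these same libraries, so a genotype difference in them here is not independent evidence. All animals were Holstein cows, 8 with good genetic merit for fertility (Fert+) and 8 with poor genetic merit for fertility (Fert-). The groups differ in breeding value and carry no engineered allele or treatment. Each cow gave a liver and a muscle biopsy in late pregnancy (LP), early lactation just after calving (EL) and mid-lactation (ML), so 96 libraries fell into 12 groups of 8. Per the study's methods the muscle was semitendinosus, the cows were kept as a single herd of mixed parity, and sires were varied within each genotype.

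Apolipoproteins are the protein part of lipoproteins, the particles that carry cholesterol, triglyceride and phospholipid in blood. The liver makes and secretes most of them, and in cows high density lipoprotein is the main carrier of plasma cholesterol. Around calving, fatty acids released from adipose tissue reach the liver in large amounts, and bovine liver exports triglyceride slowly. APOA1 is the main structural protein of high density lipoprotein and activates the enzyme that esterifies its cholesterol, and APOA2 is another of its structural proteins. APOA5 is a scarce plasma protein that promotes triglyceride hydrolysis by lipoprotein lipase. APOH, also called beta-2-glycoprotein I, binds anionic phospholipids. APOD is a lipocalin, a carrier of small lipophilic molecules, and is made in many tissues outside the liver. In the RefSeq gene order of the ARS-UCD2.0 assembly, APOA5, APOA4, APOC3 and APOA1 follow each other along the chromosome, while APOA2, APOH and APOD each lie apart from that cluster.

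Liver libraries held 14966847 to 26358063 counted read pairs and muscle libraries 15279337 to 22018740. Levels are given in CPM, a gene's read pairs for every 1000000 of the TMM-scaled total of its library, uncorrected for gene length, so levels of different genes were not compared. Marker genes matched the tissue labels: the summed level of 14 hepatocyte genes was 105429 to 324057 CPM in liver and that of muscle fibre genes was 26503.5 to 262840 CPM in muscle. A group of 13 libraries stood apart: each held more than 2 read pairs in 16 to 19 of 19 genes. No other library held more than 2 read pairs in more than 7 of them. These were 8 liver libraries, 6 of them Fert+, and 5 muscle libraries, all Fert-, and values without them follow where that changed a call.

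The tissues separated the genes into 2 kinds. In liver, APOA1 was at 337 ± 227 CPM (SD, n = 48 libraries of 16 cows), APOA2 at 2725 ± 789 CPM, APOA5 at 467 ± 192 CPM and APOH at 3621 ± 1124 CPM. In muscle, APOA1 was at 1.15 ± 0.568 CPM and APOA2, APOA5 and APOH had medians under 0.06 CPM. APOD was the reverse, at 32.2 ± 18.8 CPM in muscle and 0.662 ± 0.719 CPM in liver. No liver library overlapped any muscle library for any of the genes. All 5 differed between tissues at LP, EL and ML with adjusted p under the threshold of 0.05 (edgeR quasi-likelihood test, Benjamini-Hochberg over all genes tested). That is a weak statement, as 88.5% of 13842 genes passed at LP, 85.8% of 13935 at EL and 89.1% of 14022 at ML.

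The tissue difference is given by time-point, with no test between time-points. The log2 fold change of APOA1, liver over muscle, was 8.04 ± 0.33 (SE, n = 16 cows) at LP, 8.59 ± 0.30 at EL and 7.02 ± 0.21 at ML. APOD stood at -5.92 ± 0.40, -5.66 ± 0.45 and -5.73 ± 0.31. APOH went from 16.87 ± 0.27 at LP to 14.74 ± 0.47 at EL and 11.29 ± 0.63 at ML, and APOA2 from 15.66 ± 0.24 to 15.06 ± 0.53 and 10.94 ± 0.62. In liver neither gene differed by more than 0.50 on the log2 scale between time-points, and in muscle both were counted mostly in a few ML libraries described further on. The 16 muscle libraries held 8, 38 and 301 read pairs of APOH at LP, EL and ML, and 15, 34 and 339 of APOA2. APOA5 had 1 read pair in all 16 muscle libraries at LP and 6 at EL, so no fold is given for those time-points. At ML, on 41 read pairs in muscle, its log2 fold change was 11.20 ± 0.35. All SE given with log2 fold changes were derived from the quasi-likelihood test statistic. In this comparison those of APOA2, APOA5 and APOH are not a measure of the precision of folds on so few read pairs. All 9 of the other apolipoprotein genes with a known identifier (APOA4, APOB, APOC2, APOC3, APOC4, APOE, APOF, APON and CLU) were also higher in liver at every time-point, as were 46.2%, 45.2% and 46.2% of all genes tested at LP, EL and ML.

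Within liver, APOA1 changed most over time. Across both genotypes its lowest, median and highest values were 90.8, 287 and 705 CPM at LP, 143, 461 and 986 CPM at EL, and 84.7, 168 and 386 CPM at ML. The ML values lay in the lower part of the range of the earlier biopsies and overlapped them. From EL to ML the gene fell in 16 of 16 cows, with a median ratio of 0.350 and a log2 fold change of -1.51 ± 0.24 (adjusted p = 8.92e-06). At ML it was also below LP, in 13 of 16 cows, with a log2 fold change of -0.88 ± 0.24 (adjusted p = 0.0104). EL was above LP in 12 of 16 cows, but the log2 difference of 0.63 ± 0.23 did not pass the threshold (adjusted p = 0.118). Between EL and ML 38.2% of the 13815 genes tested in liver passed, between LP and ML 12.5%, and between LP and EL 3.24%. By direction, 18.1% of genes rose and 20.2% fell from EL to ML, 7.41% and 5.05% from LP to ML, and 2.27% and 0.977% from LP to EL.

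**Figure D1:**
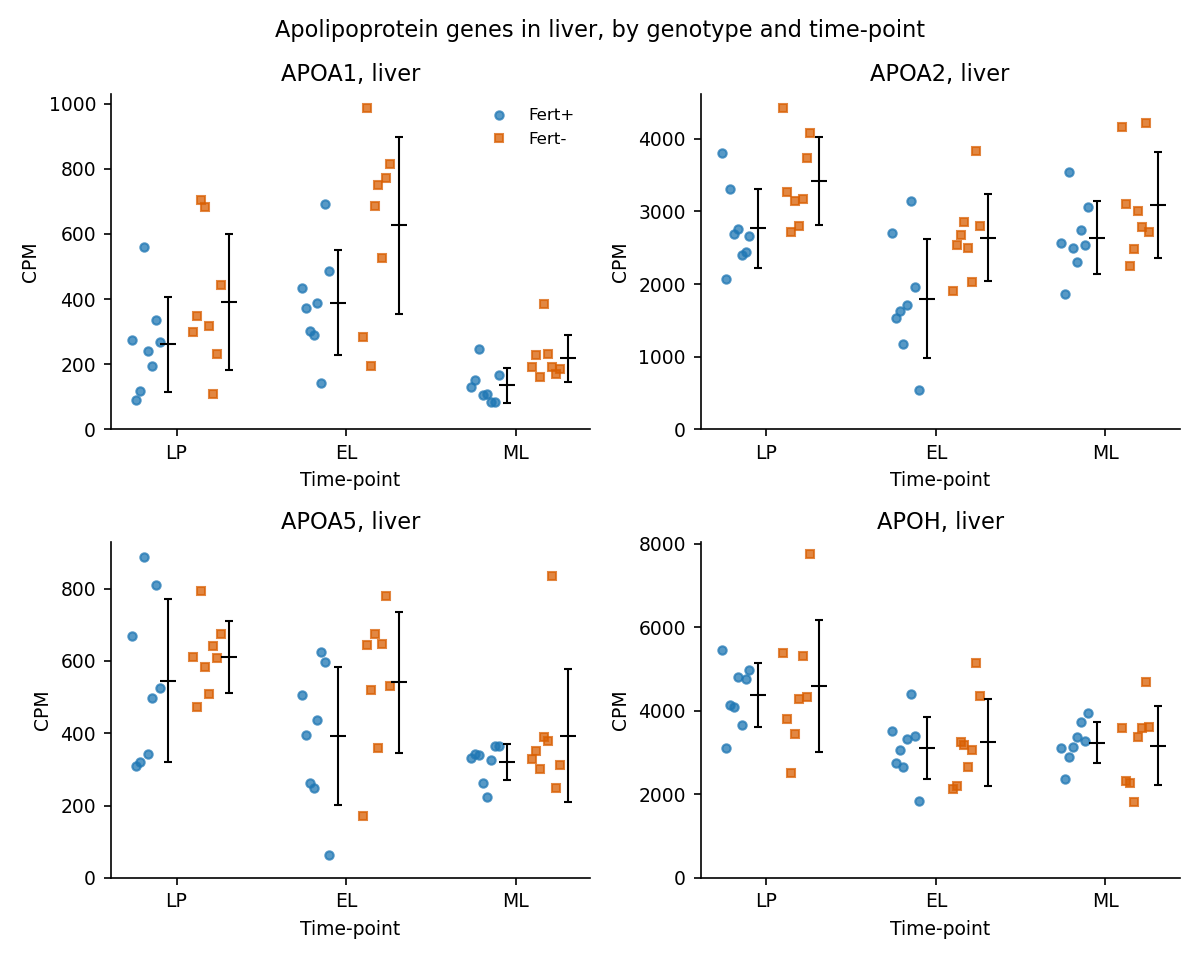
APOA1, APOA2, APOA5 and APOH in liver: each point is 1 library (CPM, linear axis from 0), circles are Fert+ and squares Fert-, and black bars give the mean ± SD of 8 cows. APOA1 is lowest at ML, with means of 135 CPM in Fert+ and 218 CPM in Fert-, while APOH drops after LP in both genotypes and has overlapping genotypes throughout.

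APOA2 did not follow APOA1. Its lowest, median and highest values were 2073, 2974 and 4428 CPM at LP, 537, 2264 and 3838 CPM at EL, and 1866, 2731 and 4211 CPM at ML. It was lower at EL than at LP in 14 of 16 cows, with a log2 fold change of -0.50 ± 0.14 (adjusted p = 0.0399). It then rose from EL to ML by 0.40 ± 0.14 (adjusted p = 0.0210), in 11 of 16 cows, and at ML it differed from LP by -0.10 ± 0.14 (adjusted p = 0.710). The fall from LP to EL passed in 5 of the 16 fits that each left out 1 cow (33, 426, 430, 1000 or 3434), and without the 8 liver libraries that stood apart its log2 fold change was -0.40 with adjusted p = 0.152. In that edgeR fit on 40 libraries 0% of 13773 genes passed from LP to EL, with 1780 at an unadjusted p under 0.05, so the loss was not particular to APOA2. The rise from EL to ML did not pass without cow 164 or without cow 756 (highest adjusted p = 0.0622).

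APOH was highest in late pregnancy. Its lowest, median and highest values were 2499, 4305 and 7746 CPM at LP, 1848, 3117 and 5137 CPM at EL, and 1821, 3327 and 4694 CPM at ML. It fell from LP to EL by 0.50 on the log2 scale (SE 0.14, adjusted p = 0.0329), in 13 of 16 cows. From EL to ML the log2 difference was 0.02 ± 0.14 (adjusted p = 0.935), and ML was below LP with a log2 fold change of -0.48 ± 0.14 (adjusted p = 0.0146), in 14 of 16 cows. As for APOA2, the call from LP to EL was lost without the libraries that stood apart (log2 fold change -0.41, adjusted p = 0.194), as was that of every other gene, and it held in 6 of the 16 fits without 1 cow (33, 426, 430, 829, 1000 or 3434). The difference between LP and ML held in 16 of those 16 fits.

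APOA5 was lower in mid-lactation than in late pregnancy. Its lowest, median and highest values were 308, 597 and 888 CPM at LP, 63.5, 512 and 779 CPM at EL, and 224, 336 and 834 CPM at ML. The log2 fold change from LP to ML was -0.69 ± 0.20 (adjusted p = 0.0170), with lower values in 13 of 16 cows, and it missed the threshold in 1 of 16 fits, the one without cow 426 (highest adjusted p = 0.0535). The steps from LP to EL (-0.33 ± 0.20, adjusted p = 0.360) and from EL to ML (-0.36 ± 0.20, adjusted p = 0.144) did not pass.

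**Figure D2:**
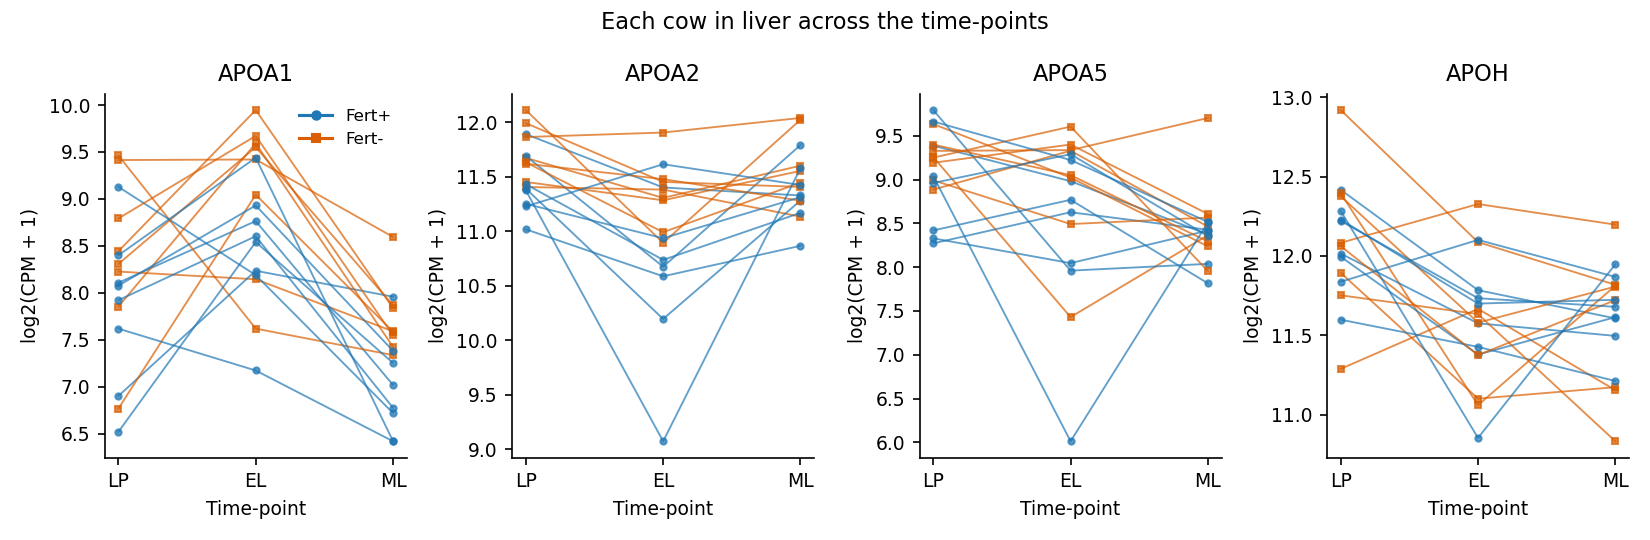
Each line is 1 cow in liver (log2(CPM + 1) against time-point, circles and blue for Fert+, squares and orange for Fert-). For APOA1 all 16 lines go down from EL to ML, for APOA2 14 of 16 go down from LP to EL and 11 of 16 go up again, and for APOH 14 of 16 end lower at ML than at LP.

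APOD was near the limit of detection in liver at every time-point, with 0 to 63 read pairs per library and medians of 0.383, 0.494 and 0.352 CPM at LP, EL and ML. None of its liver time differences passed (adjusted p 0.759 to 0.970). In liver, then, 2 of the 5 genes passed between LP and EL, 2 between EL and ML, and 3 between LP and ML. Fitting the cow as replicate block, since a cow gave all 3 biopsies, called the same genes in each of these comparisons, beside 3.07% of all genes from LP to EL, 41.8% from EL to ML and 15.9% from LP to ML. With no filter on low counts, 1.49%, 26.4% and 7.61% of 19976 genes passed and the LP to EL calls of APOA2 and APOH were lost (adjusted p = 0.0594 and 0.0526).

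Markers of other cells also moved between the liver time-points. Of 6 measured erythroid and neutrophil identifiers, 3 rose from LP to EL (S100A8, S100A9 and S100A12, calcium-binding proteins abundant in neutrophils) and 4 fell from EL to ML. Their median summed level was 8.26 CPM at LP and 8.59 CPM at EL in Fert+, and 5.60 and 9.89 CPM in Fert-. Single libraries ranged from 2.78 to 23.3 CPM at LP and from 2.92 to 283 CPM at EL. All 3 measured fibroblast genes rose from EL to ML. Of the 14 hepatocyte genes, 4 fell from LP to EL, and 5 rose and 4 fell from EL to ML. Of all genes tested, 2.27% rose and 0.977% fell from LP to EL, and 18.1% rose and 20.2% fell from EL to ML. The part of these cell types in the apolipoprotein differences was not tested. In bulk tissue fewer cells of a type and less RNA per cell cannot be told apart.

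Other genes of lipoprotein metabolism were read in liver from fixed lists, as far as their identifiers were known. Symbols came from the study's supplementary sheets, so the lists are cut to genes those sheets hold. Of the 9 other apolipoproteins, 0 passed between LP and EL (135 of 13815 genes fell and 313 rose). From EL to ML, 2 fell and 2 rose, beside 20.2% and 18.1% of all genes tested, so these counts do not set the list apart. The median log2 fold change was 0.08 for the list and -0.01 for all genes tested. APOA4, which lies in the same cluster as APOA1 and is also a high density lipoprotein component, fell by 2.30 on the log2 scale (SE 0.43, adjusted p = 8.88e-05). APOC2, the cofactor of lipoprotein lipase, fell by 0.82 (SE 0.21, adjusted p = 0.00190). CLU, a secreted chaperone, rose by 0.44 ± 0.12 (adjusted p = 0.00327), and APOC3, an inhibitor of lipoprotein lipase encoded next to APOA1, rose by 0.54 ± 0.17 (adjusted p = 0.0107). Of the 4 neighbouring genes, APOA1 and APOA4 thus fell after EL, APOC3 rose, and APOA5 did not pass. APOB, the structural protein of very low density lipoprotein, had a log2 difference of 0.08 ± 0.13 from EL to ML (adjusted p = 0.647).

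The smaller lists also held genes that passed in liver. Of all genes tested, 3.24% passed from LP to EL, 38.2% from EL to ML and 12.5% from LP to ML. Of 3 triglyceride hydrolysis genes, 1 fell from LP to EL, and 1 rose and 1 fell both from EL to ML and from LP to ML. In the lipoprotein assembly list of 3, P4HB, a subunit of the microsomal triglyceride transfer complex, rose from LP to EL by 0.61 ± 0.16 (adjusted p = 0.0280) and fell from EL to ML by 0.79 (SE 0.16, adjusted p = 0.000182). DGAT2, which makes triglyceride, fell from LP to EL by 0.56 (SE 0.16, adjusted p = 0.0454). Of 3 high density lipoprotein remodelling genes, LCAT, the cholesterol-esterifying enzyme that APOA1 activates, had a log2 fold change of -0.39 ± 0.13 from LP to ML (adjusted p = 0.0402). Of 3 receptors, SORT1, a sorting receptor for APOB particles, was at -1.07 ± 0.16 from LP to ML (adjusted p = 2.52e-05). FOXO1, the single measured gene of the transcription factor list, was at -0.33 ± 0.11 between LP and ML (adjusted p = 0.0377).

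The comparison of genotypes addresses the study's question of how cows of good and poor fertility merit differ in these tissues. None of the 5 genes passed the adjusted threshold in any of the 6 comparisons of Fert+ with Fert- in which it was tested. The filter on low counts left APOA2, APOA5 and APOH untested in muscle, and APOD untested in liver at LP and ML. The background was as low: 0% of 12872, 13047 and 13235 liver genes passed at LP, EL and ML in turn, and 0%, 0.00831% (1 gene) and 0% of 11954, 12035 and 12001 in muscle. At an unadjusted p under 0.05, liver had 6.54%, 11.7% and 12.4% of all genes and muscle 6.69%, 11.8% and 7.65%. Beside this fit, exact two-sided permutation tests of the difference in mean log2(CPM + 1) were run on 8 against 8 cows, 40 in all, for which the smallest possible p is 0.000155. These p-values are unadjusted.

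The mean of APOA1 in liver was lower in Fert+ at each time-point. At LP its lowest, median and highest values were 90.8, 255 and 559 CPM in Fert+ and 108, 332 and 705 CPM in Fert-. At EL they were 143, 380 and 693 CPM against 196, 717 and 986 CPM. At ML they were 84.7, 119 and 248 CPM against 161, 192 and 386 CPM, and all 8 Fert- cows were above the Fert+ median. The groups overlapped at every time-point, at ML because of 2 Fert+ cows, 756 and 3847.

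The log2 fold changes of APOA1 in liver were -0.58 ± 0.38 at LP, -0.71 ± 0.33 at EL and -0.71 ± 0.23 at ML. Their unadjusted p were 0.146, 0.0453 and 0.00610 and their adjusted p were 0.852, 0.418 and 0.270. Exact permutation p-values were 0.195, 0.108 and 0.00793. With a cow's 3 liver libraries summed the difference was -0.62 ± 0.19 (unadjusted p = 0.00362, adjusted p = 0.202, 0% of 14377 genes called), and the cow's mean over time-points was below the Fert- median in 8 of 8 Fert+ cows (exact permutation p = 0.00575). The edgeR exact test with a common dispersion for all genes, taken as the study's method, called APOA1 at ML (adjusted p = 0.0184) and on the sums (adjusted p = 0.0182), beside 2.11% and 3.54% of all genes. It did not call APOA1 at LP or EL, where it called 2.38% and 2.31% of all genes. DESeq2 gave adjusted p of 0.108 at ML and 0.0603 on the sums, where it called 0.582% and 1.19% of all genes, and it called 0% at LP and 0.092% at EL. The highest Fert- value at ML, 386 CPM, was that of cow 829, whose library stood apart, and without such libraries the log2 difference at ML was -0.62 (adjusted p = 0.359).

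**Figure D3:**
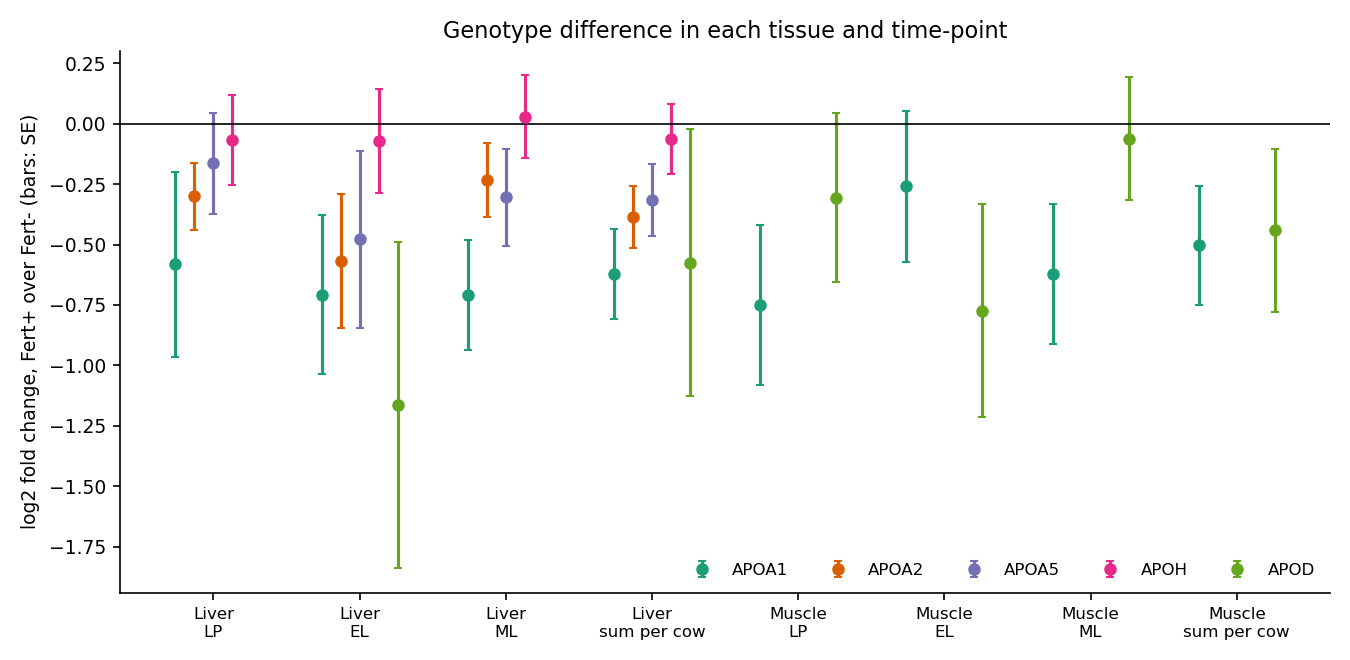
Log2 fold change of Fert+ over Fert- (points) with its SE (bars) for each gene in each tissue and time-point and on counts summed per cow, where the gene passed the filter on low counts. APOA1 lies below 0 in all 8 comparisons, from -0.26 to -0.75, and APOH lies between -0.07 and 0.03 in liver.

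The mean of APOA2 in liver was also lower in Fert+ at each time-point, and none of the differences passed. At LP it was at 2765 ± 548 CPM in Fert+ (SD, n = 8) and 3417 ± 607 CPM in Fert-. The values at EL were 1798 ± 822 and 2640 ± 592 CPM, and at ML 2640 ± 500 and 3091 ± 729 CPM. At EL the lowest, median and highest Fert+ values were 537, 1670 and 3137 CPM against 1901, 2600 and 3838 CPM in Fert-, and the groups overlapped. The log2 fold changes were -0.30 ± 0.14, -0.57 ± 0.28 and -0.23 ± 0.15 at LP, EL and ML (adjusted p 0.758, 0.434 and 0.551). Exact permutation p-values were 0.0371, 0.0250 and 0.170. On the sums per cow the difference was -0.39 ± 0.13 (unadjusted p = 0.00726, adjusted p = 0.215).

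For APOA5 the log2 fold changes in liver were -0.16 ± 0.21, -0.48 ± 0.37 and -0.30 ± 0.20 at LP, EL and ML, and -0.31 ± 0.15 on the sums (adjusted p = 0.326). Its spread differed between groups: at LP the coefficient of variation was 41.2% in Fert+ and 16.3% in Fert-, and at ML it was 15.7% and 46.8%. A single Fert- cow, 996, held the highest ML value, 834 CPM, and the other 7 were at 247 to 389 CPM. For APOH the differences were -0.07 ± 0.19, -0.07 ± 0.21 and 0.03 ± 0.17, and -0.06 ± 0.14 on the sums. Mean APOH at LP was 4374 ± 774 CPM for Fert+ against 4600 ± 1585 CPM for Fert-. APOD in liver was tested only at EL, where it was at 0.476 ± 0.513 CPM for Fert+ against 1.09 ± 1.15 CPM for Fert- (log2 fold change -1.16 ± 0.67, adjusted p = 0.479). The exact test with a common dispersion called it (adjusted p = 0.0223), on 93 read pairs in 8 Fert+ libraries and 143 in 8 Fert- libraries.

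The genotype difference was not shown to vary with time. The interaction of genotype and time-point passed for 0 of the 5 genes in liver, with adjusted p of 0.997 for APOA1, 0.923 for APOA2, 0.971 for APOA5, 0.992 for APOH and 0.901 for APOD, and for 0% of 13815 genes. In muscle it had adjusted p of 0.993 for APOA1 and 0.984 for APOD, and 0% of 12675 genes passed. Unadjusted p-values of these tests ran from 0.359 to 0.957. None of the other apolipoproteins passed between genotypes in liver at any time-point. The largest of their differences with an unadjusted p under 0.05 was APOA4 at ML (-1.32 ± 0.51, adjusted p = 0.335). Its medians were close, 47.6 CPM in Fert+ and 53.7 CPM in Fert-. The groups overlapped, at 22.1 to 69.0 CPM in Fert+ and 35.3 to 425 CPM in Fert-.

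Across the 16 cows, APOA2, APOA5 and APOH in liver were correlated at EL by Pearson's r. No call held without the 2 cows farthest from the median. On log2(CPM + 1) at EL, Pearson r was 0.867 between APOA2 and APOA5 (Spearman rho 0.785), 0.706 between APOA2 and APOH (rho 0.697) and 0.714 between APOA5 and APOH (rho 0.626). Their permutation p-values were 0.000200, 0.00185 and 0.00124 for r, and 0.000490, 0.00390 and 0.0106 for rho. Adjusted over the 18 relations computed, these were 0.00360, 0.0111 and 0.0111 for r and 0.00882, 0.0351 and 0.0638 for rho. Without the 2 cows farthest from the median of the first gene, r was 0.611, 0.577 and 0.449, with adjusted permutation p of 0.159, 0.18 and 0.238. Leaving out the extreme cows narrows the range of that gene and leaves fewer cows. A lower r is then found in any case and does not show whether the relations rest on those cows. All 3 genes were lowest at EL in cow 3847 (APOA2 537 CPM, APOA5 63.5 CPM, APOH 1848 CPM), whose library is among those that stood apart. In the 13 cows whose EL library did not stand apart, r was 0.680, 0.692 and 0.775 in the same order (adjusted permutation p = 0.0610, 0.0610 and 0.0315), and rho was 0.769, 0.659 and 0.769 (adjusted permutation p = 0.0257, 0.0896 and 0.0257). Cow 164 came next for APOA5 (171 CPM) and APOH (2133 CPM) but not for APOA2 (1901 CPM). ALB, the gene of serum albumin, was lowest in the same 2 liver libraries at EL, at 25731 and 9833 CPM.

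For APOA1 no relation with APOA2 or APOH passed over the 16 cows. Its r with APOA2 was 0.179, 0.139 and 0.299 at LP, EL and ML, and with APOH -0.095, -0.023 and -0.429, with adjusted permutation p from 0.249 to 0.964. Without the 2 cows farthest from the median, Spearman's rho between APOA1 and APOA2 was 0.697 at EL and 0.705 at ML (adjusted permutation p = 0.0405 for both), while Pearson's r was 0.512 at both (adjusted permutation p = 0.181). With its chromosomal neighbour APOA5, r was 0.654 at LP (rho 0.591, permutation p = 0.00614 and 0.0176, adjusted p = 0.0276 and 0.0769), 0.225 at EL and 0.317 at ML. The LP value was 0.703 without the 2 farthest cows (adjusted permutation p = 0.0862) and 0.597 in the 14 cows whose library did not stand apart (adjusted permutation p = 0.106). After the genotype means were removed it was 0.617 (adjusted permutation p = 0.0349).

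Whether a cow kept its place between biopsies was read from the same gene at 2 time-points. Of the 15 relations of a gene with itself in liver between 2 time-points, 1 passed: APOA2 between LP and ML, with r of 0.667 and rho of 0.553 (permutation p = 0.00468 and 0.0291, adjusted over 18 relations p = 0.0421 and 0.110). It was 0.393 without the 2 farthest cows, and 0.706 in the 11 cows with no library that stood apart (adjusted permutation p = 0.0962). For APOA1 the r was 0.117 between LP and EL, 0.428 between EL and ML and 0.10 between LP and ML.

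Other genes with a known symbol were ranked by how closely they followed each member over the 48 liver libraries, after group means (genotype by time-point) were taken out. These Pearson r are a description, since libraries of a cow share that cow, and they rank 1959 genes. APOA1 was most like APOC2 (r = 0.745), CGREF1 (0.624) and LDHA (0.601), the lactate dehydrogenase A subunit. APOA2 was most like FXYD1 (0.888) and PEBP1 (0.859). APOA5 was most like ACAA1 (0.891), IDH1 (0.882) and ACOX2 (0.869), of which ACAA1 and ACOX2 are peroxisomal beta-oxidation enzymes. APOH was most like TF (0.903), which encodes transferrin, ACSL5 (0.854), a long-chain acyl-CoA synthetase, and UGT1A6 (0.80). In the 40 liver libraries that did not stand apart, these r were 0.584 to 0.766 for APOA1, 0.729 to 0.775 for APOA2, 0.815 to 0.837 for APOA5 and 0.803 to 0.889 for APOH. Among the members themselves, APOA2 and APOH had r of 0.686 and APOA1 and APOA2 had r of -0.037.

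In muscle, APOD was the member with the highest counts. Its lowest, median and highest values were 10.3, 27.7 and 72.2 CPM at LP, 7.23, 23.3 and 105 CPM at EL, and 11.7, 27.6 and 45.1 CPM at ML, on 141 to 2546 read pairs per library. None of its time differences passed: the log2 fold changes were 0.03 ± 0.27 from LP to EL, -0.18 ± 0.27 from EL to ML and -0.14 ± 0.27 from LP to ML (adjusted p 0.923, 0.585 and 0.820). In the same tests 53.9%, 59.4% and 6.08% of 12675 muscle genes passed. From LP to EL 10 of 11 muscle fibre identifiers and all 3 fibroblast genes fell, beside 24.8% of all genes tested. The part of these cell types in the APOD level was not tested.

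Cows with much muscle APOD at LP also had much at EL. Over the 16 cows, r was 0.806 between LP and EL (rho 0.797, permutation p = 0.000180 and 0.000360, adjusted p = 0.00324 and 0.00648). The relations between EL and ML and between LP and ML did not pass (adjusted permutation p = 0.129 and 0.0539 for r), though the latter did in the 14 cows with no muscle library that stood apart (r = 0.735, adjusted permutation p = 0.0230; rho 0.657, adjusted permutation p = 0.0781). Without the 2 farthest cows the first was 0.756 (adjusted permutation p = 0.0317), and with genotype means removed it was 0.825 (adjusted permutation p = 0.00198). In Fert- the highest cow was 1179 at all 3 biopsies, with 72.2, 105 and 45.1 CPM, and in Fert+ cow 3397 was lowest at all 3, with 15.9, 7.23 and 14.2 CPM.

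**Figure D4:**
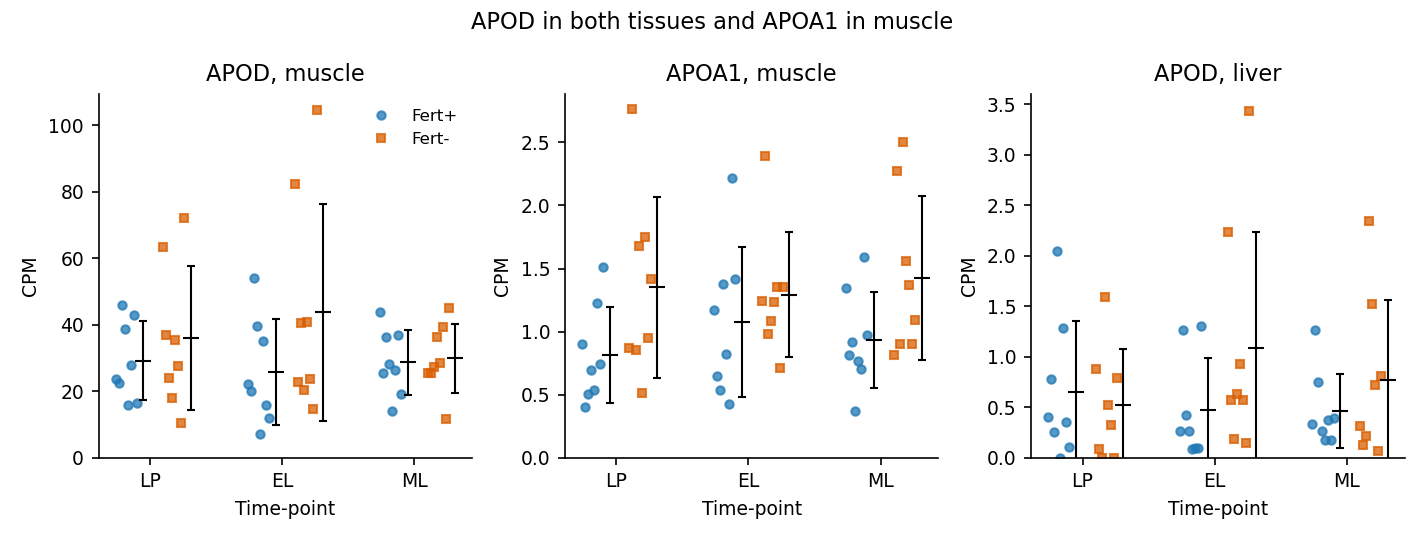
APOD in muscle, APOA1 in muscle and APOD in liver: points are libraries (CPM, linear axis from 0), circles Fert+ and squares Fert-, and black bars the mean ± SD of 8 cows. Muscle APOD overlaps between genotypes at every time-point, with 2 Fert- cows at 82.4 and 105 CPM at EL.

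Between genotypes, the mean of muscle APOD at EL was 25.8 ± 15.9 CPM for Fert+ against 43.8 ± 32.6 CPM for Fert- (SD, n = 8), a difference that did not pass. Its lowest, median and highest values at EL were 7.23, 21.1 and 54.1 CPM in Fert+ and 14.7, 32.2 and 105 CPM in Fert-. The 2 highest Fert- cows, 1179 and 164, lay above every Fert+ cow and the remaining 6 lay within the Fert+ range. The EL muscle library of cow 164 stood apart, and without such libraries the log2 difference was -0.66 (adjusted p = 0.606). The log2 fold change was -0.77 ± 0.44 at EL (adjusted p = 0.497, exact permutation p = 0.173), and it was -0.31 ± 0.35 at LP and -0.06 ± 0.25 at ML. Without 1 cow at a time the EL value ran from -1.0 to -0.44. The exact test with a common dispersion called APOD at EL (adjusted p = 0.0201), beside 3.64% of all genes. Across 48 muscle libraries APOD had r of -0.05 with the summed adipocyte markers and 0.29 with the summed fibroblast markers on the log2 scale, given as a description. The nearest genes by residual r, among 1724, were PIM1 (0.517), a serine-threonine kinase, MUSK (0.504), a receptor kinase of the neuromuscular junction, and HSD11B1 (0.497), which regenerates active glucocorticoid.

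APOA1 was counted in every muscle library at a low level, 6 to 58 read pairs, and none of its time differences passed. Its means were 1.08 ± 0.621, 1.18 ± 0.540 and 1.18 ± 0.572 CPM at LP, EL and ML (SD, n = 16), and the log2 fold changes between time-points lay between -0.02 and 0.16 (adjusted p 0.578 to 0.950). Its mean was lower in Fert+ at LP (0.815 ± 0.382 against 1.35 ± 0.719 CPM) and ML (0.935 ± 0.381 against 1.43 ± 0.648 CPM), with log2 fold changes of -0.75 ± 0.33 and -0.62 ± 0.29. Neither passed (unadjusted p 0.0343 and 0.0427, adjusted p 0.711 and 0.635, exact permutation p 0.0746 and 0.0796). At EL the difference was -0.26 ± 0.31. The highest muscle APOA1 at LP and EL was in cow 419, whose muscle libraries stood apart, and without the libraries of that kind the log2 differences were -0.50 at LP, -0.05 at EL and -0.59 at ML.

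APOA2, APOA5 and APOH in muscle were at or near 0 in most libraries and counted in a few, mostly at ML. The 16 libraries of a time-point held 15, 34 and 339 read pairs of APOA2 at LP, EL and ML, 1, 6 and 41 of APOA5, and 8, 38 and 301 of APOH. The lowest, median and highest ML values were 0, 0.172 and 5.26 CPM for APOA2, 0, 0 and 0.899 CPM for APOA5, and 0, 0.220 and 5.52 CPM for APOH. The edgeR filter on low counts (filterByExpr) removed the 3 genes from the muscle fits. With no filter, all 3 were higher at ML than at LP and than at EL: by 4.60 ± 0.85 and 4.38 ± 0.84 on the log2 scale for APOA2 (adjusted p = 0.000288 and 1.12e-05), and by 5.07 ± 0.91 and 3.36 ± 0.70 for APOH (adjusted p = 0.000195 and 7.48e-05). For APOA5 the adjusted p were 0.0256 and 0.00731, with no fold given because 2 of its groups, Fert- at LP and Fert+ at EL, held no read pair, which allows up to 0.0201 and 0.0214 CPM. In that fit 4.25% and 40.6% of 19523 genes passed.

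These muscle counts went with those of ALB, library by library. ALB, made by hepatocytes, was at a median of 0.423, 0.355 and 6.25 CPM at LP, EL and ML and reached 110 CPM. It was at 5 CPM or more in 9 muscle libraries, a limit chosen after seeing the values: 5 Fert- and 3 Fert+ libraries at ML and 1 Fert- library at EL. These 9 held 346 of the 388 read pairs of APOA2 in muscle, 47 of 48 of APOA5 and 309 of 347 of APOH. Across 48 muscle libraries on log2(CPM + 0.1), r with ALB was 0.920 for APOA2, 0.899 for APOH and 0.787 for APOA5, and it was 0.000 for APOA1 and -0.035 for APOD. Spearman rho was 0.861, 0.768 and 0.592, and -0.039 and -0.062, in the same order. APOA5 was at 0 in 40 of these 48 libraries. APOA1 was at 0.704 to 1.59 CPM in these 9 libraries and 0.369 to 2.77 CPM in the other 39, and APOD at 11.7 to 45.1 and 7.23 to 105 CPM.

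**Figure D5:**
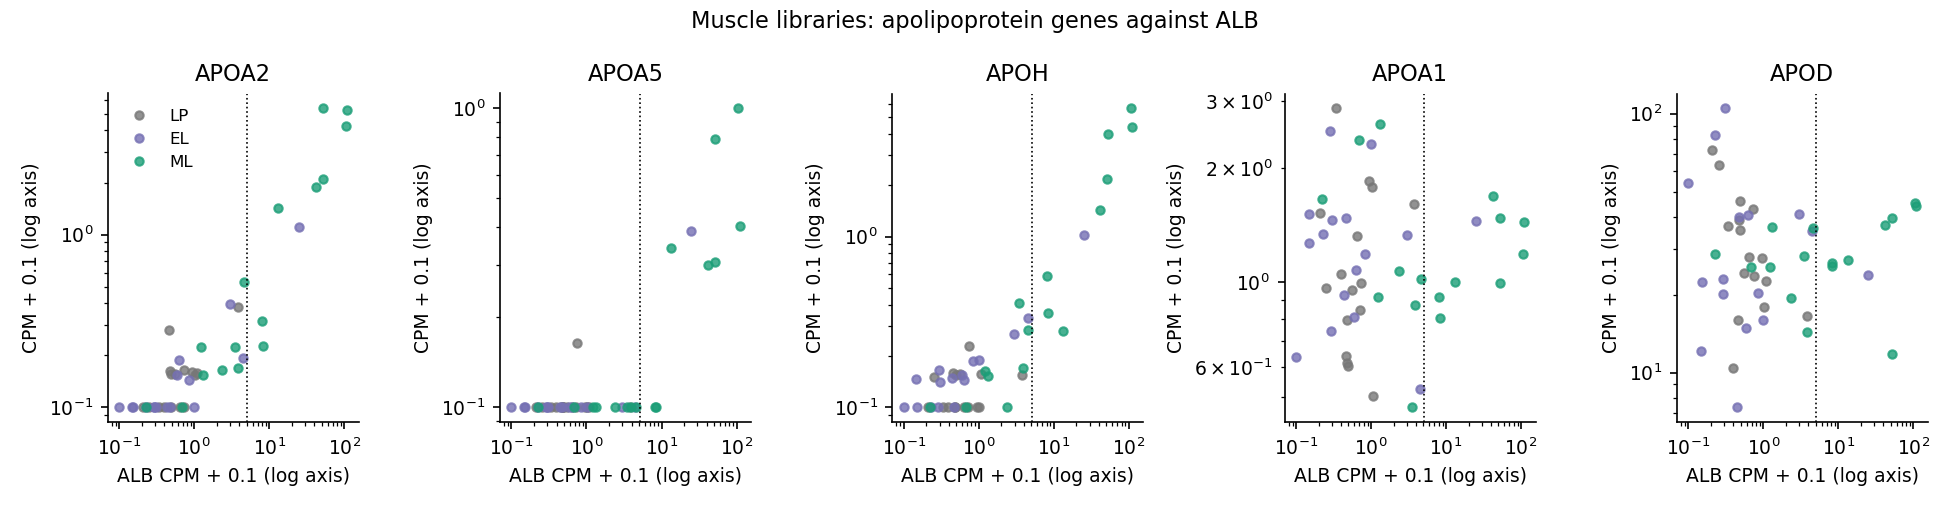
The 5 genes against ALB in the 48 muscle libraries (both axes CPM + 0.1, log axes, coloured by time-point, dotted line at an ALB of 5 CPM). APOA2, APOA5 and APOH climb with ALB among the 9 libraries to the right of the line, 8 of them ML, and APOA1 and APOD do not.

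The whole hepatocyte list moved in the same libraries. Its summed level was 2.0 to 15.3 CPM in muscle at LP and EL apart from 1 library at 54.9 CPM, and 5.18 to 232 CPM at ML, against at least 105429 CPM in liver. For each 1000 read pairs of ALB, the 9 muscle libraries together held 51.2 of APOA2, 45.8 of APOH and 6.96 of APOA5, and the ranges in the 16 ML liver libraries were 20.2 to 63.3, 26.1 to 50.6 and 1.78 to 11.8. Taken singly the 9 libraries spread more widely, over 15.5 to 101 for APOA2, 13.7 to 74.6 for APOH and 0 to 18.3 for APOA5, and 6, 5 and 5 of them lay within those ranges. Of the 13 hepatocyte genes besides ALB, 10 had a pooled muscle value within their ML liver range and 3 above it: RBP4 (123 against 35.8 to 88.7), TTR (59.2 against 23.1 to 49.7) and SERPINA1 (97.9 against 37.5 to 97.2). Taken singly, from 2 (RBP4) to 8 (TF among others) of the 9 libraries lay within the ML liver range of these 13 genes. For APOA1 the pooled muscle value was 25.0 and the liver range at ML 0.644 to 9.83. The same ratio for APOD was 691 in muscle and at most 0.0598 in liver at ML. The other 39 libraries held 15, 13 and 14 read pairs of APOA2 at LP, EL and ML, 1, 0 and 0 of APOA5, and 8, 19 and 11 of APOH, in 16, 15 and 8 libraries. These are too few to read a time difference from, and the limit on ALB removes most read pairs of genes that go with it. The part of liver RNA in these counts was not tested.

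The muscle genotype differences of these 3 genes rest on the same libraries. Read pairs at ML were 126 in Fert+ and 213 in Fert- for APOA2, 8 and 33 for APOA5, and 104 and 197 for APOH. At EL they were 2 and 32, 0 and 6, and 10 and 28, and a single Fert- library, cow 996, with ALB at 24.8 CPM, gave 21, 6 and 19 of those. With no filter, none passed at ML (log2 fold changes of -0.71 ± 1.09, -1.86 ± 1.14 and -0.88 ± 1.12, adjusted p 0.902, 0.737 and 0.873) or at EL (adjusted p 0.354, 0.544 and 0.667). Exact permutation p-values were 0.509, 0.212 and 0.484 at ML and 0.0816, 1 and 0.542 at EL. The ML libraries under 5 CPM of ALB, 5 Fert+ and 3 Fert-, held 13 read pairs of APOA2 in Fert+ and 1 in Fert-, and 10 and 1 of APOH. Their ALB was at 1.13 to 4.48 CPM in Fert+ and 0.125 to 1.23 CPM in Fert-, so they were not alike in ALB. At LP, where no library was high in ALB, APOA2 had 12 read pairs in Fert+ and 3 in Fert- (exact permutation p = 0.0437, unadjusted; adjusted p = 0.744 in the unfiltered fit), APOA5 had 1 and 0, and APOH 6 and 2.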

How the data were processed

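RNA of 96 biopsies was sequenced as paired 100 bp reads. The values are counts of read pairs per Ensembl70 gene (UMD_3.1) for each library, as deposited by the authors without normalization, after Trimmomatic, STAR, Samtools and featureCounts. A further 96 columns of counts without sample names, in tables of the whole series, were not used. All 336 pairs of libraries within a group differed beyond sampling noise, with a chi-square of at least 19.4 per gene on average.

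The members and lists were chosen with earlier results of these data known. CPM used TMM factors over the 48 libraries of a tissue. edgeR 4.0.16 under R 4.3.3 gave quasi-likelihood tests (robust, two-sided, filterByExpr, Benjamini-Hochberg over all genes tested, threshold 0.05), per time-point for genotype, over 48 libraries for time and interaction, and over 32 for tissue, each without the cow in the fit. Alternatives were the edgeR exact test with common dispersion, DESeq2 1.42.0, no filter, RLE factors, the cow as replicate block, and fits without 1 cow or without the 13 libraries. Fits without the libraries high in ALB, and with 2 of these changes together, were added after seeing the data. Cow numbers in the labels were taken to name the animal. After removal of group means, 39 of 48 liver and 42 of 48 muscle pairs of the same cow correlated above 0.1. Pairs of different cows were not set beside them, so this does not test the pairing. Correlations used log2(CPM + 1) and 100000 resamples. Named genes were the members, list genes past the threshold with the smallest adjusted p (at most 3 per direction) and the 3 genes most like each member. Some genes that this rule names are not reported here. Python 3.11.15 with numpy 2.4.6 and scipy 1.17.1 did the rest. Simulated data with known changes were used as a check of the fits. Each gene is counted over its whole model, strand use is not given in the sources used here, and the precision of low values is set by counting, which the intervals for 0 counts cover alone. Without gene lengths, levels were not compared between genes.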

Additional observations from a re-analysis of the deposited data

Results flagged for a closer look

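In 53 groups of 8 cows, a cow was picked out where its gap to the nearest other cow was large against the whole range of its group. Chance picks out about 1 group in 20 where values are normally distributed, which muscle groups with many cows at 0 are not. Of the 9 cases found, several come from 1 muscle library, so their number is not read against chance. In liver, APOA1 at ML in Fert- was 386 CPM in cow 829, whose library stood apart, and 161 to 233 CPM in the other 7. APOA5 at EL in Fert+ was 63.5 CPM in cow 3847, whose library also stood apart, and 248 to 625 CPM in the others. APOA5 at ML in Fert- was 834 CPM in cow 996 and 247 to 389 CPM in the others.

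In muscle, 1 library, the EL biopsy of the Fert- cow 996, was picked out for 3 genes. It held APOA2 at 1.01 CPM (others 0 to 0.297), APOA5 at 0.289 CPM (others at 0) and APOH at 0.917 CPM (others 0 to 0.170), with ALB at 24.8 CPM. APOH at EL in Fert+ was 0.236 CPM in cow 3434 (others 0 to 0.0905), which had the highest ALB of that group, 4.39 CPM. APOA1 at EL in Fert- was 2.39 CPM in cow 419, whose library stood apart, and 0.709 to 1.36 CPM in the others. APOD at ML in Fert- was 11.7 CPM in cow 1000 and 25.5 to 45.1 CPM in the others.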

How the results depend on the processing

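Of 523 single values under alternatives other than leaving out a cow, 481 were counted as unchanged. For fold changes this meant the same direction and the same side of the threshold. Interaction tests have no direction and were judged by the threshold alone. A correlation not past the threshold in the main setting counted as unchanged also where its sign changed. Between genotypes, none of the members tested passed in the main fits. The exact test with a common dispersion called 1 in liver at EL, at ML and on the sums, and 1 in muscle at EL. Both used the filter on low counts, which left APOA2, APOA5 and APOH untested at each time-point in muscle. In liver from LP to EL the 2 calls fell to 0 with no filter and to 0 without the 13 libraries that stood apart, where 0 of 13773 genes passed, and they ranged from 0 to 3 without 1 cow. From EL to ML in liver 1 to 3 were called without 1 cow. In muscle, the calls from EL to ML and from LP to ML went from 0 to 3 with no filter, to 3 with the replicate block and no filter, to 2 without the 13 libraries, and to 0 to 1 without 1 cow, where APOA2 passed the filter in 10 fits. By Pearson's r, 4 relations between pairs of members passed in the main setting, 1 without the 13 libraries and 0 without the 2 farthest cows, and of the same gene between time-points 2 passed, 1 with genotype means removed and 1 without those cows. The causes were not tested.

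Fold changes that changed sign were not past the threshold on either side. Without the 13 libraries these were APOH between genotypes in liver at ML (-0.043, and -0.041 with no filter), APOH from EL to ML (-0.0012), APOA2 and APOD from LP to ML (0.0073 and -0.57), and in muscle APOD from LP to EL (-0.013) and APOA1 from EL to ML (0.066). With the replicate block in muscle, APOD was at -0.044 from LP to EL and 0.021 from EL to ML, and with no filter besides at -0.031 and 0.0042, and APOH in liver from EL to ML at -0.0016. The block changed no other call. Without the libraries high in ALB and with no filter, genotype differences turned to 0.14 for APOH at EL, 2.68 for APOA2 and 2.32 for APOH at ML (13 against 1 and 10 against 1 read pairs). Time differences there were -0.45 for APOA2 from LP to EL, and 0.12 for APOA1 and -0.18 for APOH from EL to ML. APOA5 has no fold there, with 1 read pair in all. Without 1 cow at a time, sign changes stayed within these ranges: APOH between genotypes in liver -0.17 to 0.077 at LP, -0.16 to 0.051 at EL and -0.053 to 0.13 at ML, APOD between genotypes in muscle at ML -0.18 to 0.050, APOH in liver from EL to ML -0.047 to 0.056, APOD in liver -0.014 to 0.57 from LP to EL, -0.54 to 0.026 from EL to ML and -0.15 to 0.34 from LP to ML, APOD in muscle from LP to EL -0.025 to 0.12, and APOA1 in muscle from EL to ML -0.12 to 0.069. In muscle, APOA2 from LP to EL, tested only in the 10 fits where it passed the filter, ran from -0.62 to 0.54. APOA1 in liver from LP to EL passed only without cow 426 (adjusted p = 0.0270) and APOA5 in liver from EL to ML only without cow 3847 (adjusted p = 0.0408). Depth limits the muscle values of APOA2, APOA5 and APOH and the liver values of APOD, which rest on few read pairs.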
